A study of Mus musculus with 4 samples.

Results

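Cycling muscle progenitors in which neither Pax7 nor more than a low level of Myog was counted made up 107 of 5481 single cells (1.95%, exact 95% interval 1.60% to 2.35%). A cell was taken into this group when its UMIs, summed over 4 files, held at least 150 CPM (counts in every 1000000 UMIs of the cell) of Mki67 plus Top2a, under 400 CPM of Myog, at least 1000 CPM of Malat1 and no Pax7 UMI. A UMI, or unique molecular identifier, marks 1 captured RNA molecule. The levels of Mki67, Top2a, Myog, Pax7 and Malat1 therefore chose the cells and are given below as a description only. The cells came from skeletal muscle stem cells of mice of the MyoD-KI genotype, in which the red fluorescent protein tdTomato reports MyoD. They had spent 5 days in serum-rich growth medium, and only cells with high reporter signal, isolated by flow cytometry, were in the 4 samples. All groups compared below are parts of this 1 sorted population, so they share genotype, culture and gate, and the counterpart with low reporter signal was not analysed here. The animals' number, age and sex are not given in the sources used here, and nothing in the labels says that the replicates came from separate cultures.

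Skeletal muscle stem cells leave quiescence, divide as myoblasts and then stop dividing to fuse into myofibres. Pax7 is the transcription factor that marks the stem cell and its dividing progeny, Myod1 (which encodes MyoD) is the factor that commits them to muscle, and Myog (myogenin) is switched on as they begin to differentiate. Division itself is read from genes of DNA synthesis, which peak in S phase, and from genes of chromosome segregation, which peak in G2 and mitosis. Mki67, a protein that coats mitotic chromosomes, and Top2a, the topoisomerase that untangles them, are low outside the cycle.

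Between 5946 and 5965 cell barcodes were shared by each pair of files, at least 99.88% of the smaller file, and 5944 were in all 4. The files were therefore taken as repeat libraries made from the same cells, that is as 1 sample, and no difference between groups was tested. Totals ran from 6.26e+07 to 6.89e+07 UMIs per file. Intervals are exact 95% intervals at the mean count of 1 file and cover counting error only. Values for the 4 files are given in the order of replicates 1 to 4 and show technical repeatability, not variation between animals.

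The group was set beside the 3 groups that differ from it in 1 criterion each. The first held 1249 cycling Myog-low cells with at least 1 Pax7 UMI (the Pax7-positive cycling cells). The next held 251 cycling Pax7-negative cells with at least 400 CPM of Myog (the Myog-expressing cycling cells). The last held 128 Pax7-negative Myog-low cells under 150 CPM of Mki67 plus Top2a (the non-cycling counterparts). Depth differed between them, with a median of 10391.5 UMIs per file in the 107 cells, 13124 in the Pax7-positive cycling cells, 11043 in the Myog-expressing cycling cells and 8598 in the non-cycling counterparts. For comparisons a random draw of 5000 UMIs per file was kept from each cell (thinning), which left out 12 of the 107 cells and kept 95, against 1226, 242 and 102 in the other groups.

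Pax7 was sparse in these cells but not absent from UMIs that had no part in choosing them. With the groups assigned from 3 files and Pax7 read in the file left out, 139 to 164 cells met the rule, and 28.8% of them on average held a Pax7 UMI (25.2% to 31.7% over the 4 files). Their Pax7 level was 33.1 CPM, against 118 CPM and 72.0% of cells in the Pax7-positive cycling cells. It was 9.53 CPM and 10.0% of cells in the Myog-expressing cycling cells, and 28.9 CPM and 21.5% in the non-cycling counterparts. As a background, the 2142 non-cycling cells with at least 400 CPM of Myog, which were not chosen on Pax7, held 9.11 CPM with a UMI in 7.90% of cells per file at a median depth of 11048 UMIs. Among the groups compared here, the left-out Pax7 level was highest in Pax7-positive cycling cells, several times lower in the group described here and its non-cycling counterparts, and lowest with Myog. Files may share molecules, for which these values were not corrected.

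Membership moved with sequencing depth. Among the 1356 cycling Myog-low cells, 7.89% had no Pax7 UMI (6.51% to 9.46%). Ordered by depth into 4 bins of 339 cells, 50 cells (14.7%) of the shallowest, 24 (7.08%) and 25 (7.37%) of the middle bins and 8 (2.36%) of the deepest had none. When the groups were assigned on the thinned counts, 329 of 1328 such cells (24.8%) fell into the Pax7-negative group, against 95 of 1321 (7.19%) on full counts. The label "Pax7-negative" is used below for cells without a counted Pax7 UMI and does not mean that they lacked Pax7 RNA.

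**Figure D1:**
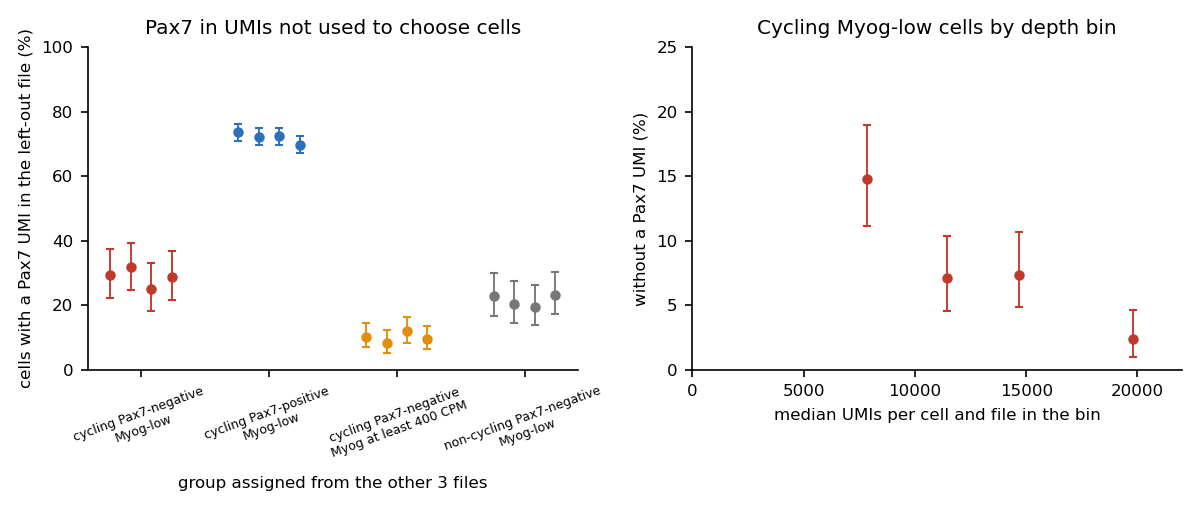
Left: share of cells (%) with a Pax7 UMI in the file left out of the assignment, 1 point per left-out file, for the 4 groups, with exact 95% binomial intervals. Right: share of cycling Myog-low cells without a Pax7 UMI (%) against the median UMIs per cell and file of each depth bin, which falls from 14.7% to 2.36%.

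The group is a range cut from continuous levels and not a cell type. Mki67 plus Top2a per cell ran from 154 to 2636 CPM with a median of 481 CPM, below the median of 788 CPM of the Pax7-positive cycling cells. Just inside the threshold, 11 cells lay between 150 and 187.5 CPM (median 162 CPM), and just outside it 11 cells lay between 112.5 and 150 CPM (median 127 CPM). Myog had a median of 74.4 CPM per cell, and 13 cells had no Myog UMI. At its threshold, 12 cells had 300 to 400 CPM (median 332 CPM) and 7 cells that met the other criteria had 400 to 500 CPM (median 440 CPM). A further 36 cells met every criterion except that for Malat1, a nuclear noncoding RNA, and 142 cells were set apart from the group by a single Pax7 UMI.

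Myod1 was not used by the rule, but the cells were sorted on its reporter, so its presence does not set the group apart. The Myod1 level was 393, 377, 344 and 363 CPM in the 4 files, a mean of 369 CPM (335 to 407 CPM), with a median of 337 CPM over cells. After thinning, 71.8% of cells held a Myod1 UMI in a file (61.7% to 80.6%). All groups of kept cells held Myod1 UMIs, so none gives a background for free RNA of this gene. The most abundant transcripts were Lgals1 (galectin 1), at 7670 CPM, and transcripts of ribosomal proteins such as Rpl41, at 6856 CPM.

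Markers of blood, vessel and nerve cells were at or near 0, whereas some fibroblast, pericyte and adipocyte markers were counted. Summed levels of the endothelial (6 genes), leukocyte (7 genes), erythroid (3 genes) and Schwann cell (4 genes) lists were 0.435, 1.33, 0.436 and 1.99 CPM, and 5, 6, 1 and 2 of these genes, Cdh5, Ptprc and Sox10 among them, had no UMI. The 8 fibroblast markers summed to 231 CPM (217 to 239 CPM over the files), mostly Col3a1 at 134 CPM, Ly6a at 47.8 CPM and Col1a2 at 37.4 CPM. The others were Col1a1 at 5.33 CPM, Thy1 at 4.43 CPM, Pdgfra at 2.42 CPM, Dcn at 0.215 CPM and Lum at 0. Col1a1 was at 0.606 CPM in the Pax7-positive cycling cells. The 8 markers summed to 223 CPM in the Pax7-positive cycling cells, 99.6 CPM in the Myog-expressing cycling cells and 213 CPM in the non-cycling counterparts. The 7 pericyte and smooth muscle markers summed to 77.1 CPM (70.7 to 84.7 CPM), mostly Notch3, with Kcnj8 at 0, against 124, 32.8 and 72.0 CPM in the same order. The 4 adipocyte markers summed to 73.5 CPM (70.0 to 79.0 CPM), with Adipoq and Plin1 at 0 and Lpl, a lipase that muscle also makes, at 58.7 CPM, against 42.7, 47.2 and 71.3 CPM. Scrublet, a doublet caller, marked 0 of 5481 cells with its own threshold, and whether it missed doublets was not tested. No cell was removed as a doublet, and 1 of the 107 cells was among the 265 with the highest 5% of scores.

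Cells in S phase were more frequent in this group than in either of the other cycling groups compared. Phase was called per cell at equal depth from lists without Mki67 and Top2a. S was called in 44 of 95 cells (46.3%, 36.0% to 56.8%), G2/M in 45 (47.4%, 37.0% to 57.9%) and G1 in 6 (6.32%, 2.35% to 13.2%). The Pax7-positive cycling cells were 30.5% S (27.9% to 33.2%) and 67.4% G2/M, and the Myog-expressing cycling cells 11.6% S (7.83% to 16.3%) and 83.5% G2/M. The S intervals of these 3 groups do not overlap, but they count cells from the same sample as if independent. They cover counting error only and are no test of a difference between the groups. Without thinning, S was called in 41.1%, 28.7% and 12.4% of cells, in that order. The non-cycling counterparts were called G1 in 72.5% of cells.

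Depth moved with this result too. Within the depth bins of the cycling Myog-low cells, S was called in 42.1% of Pax7-negative against 28.6% of Pax7-positive cells in the shallowest bin. The shares were 58.3% against 37.1% in the next bin and 52.0% against 35.0% in the bin after it. In the deepest bin, with 8 Pax7-negative cells, they were 12.5% (0.316% to 52.7%) against 21.5%. With groups assigned on thinned counts, S was called in 37.4% of 329 Pax7-negative cells (32.1% to 42.9%) and 28.6% of 999 Pax7-positive cells (25.8% to 31.5%). The part of depth in the difference was not tested further, and free RNA, which phase calls also read, was not measured.

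**Figure D2:**
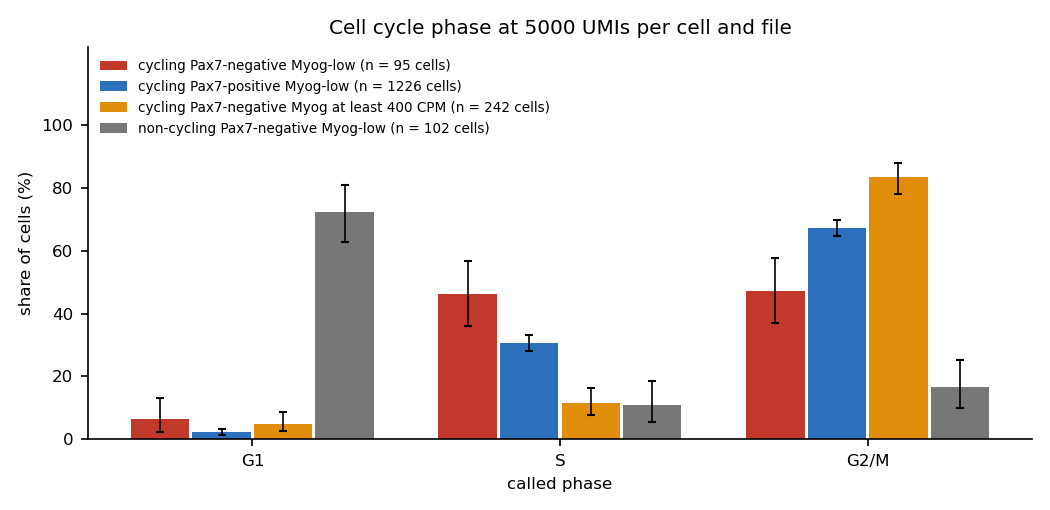
Share of cells (%) called G1, S or G2/M in the 4 groups at 5000 UMIs per cell and file; bars are shares and whiskers exact 95% binomial intervals. The cycling Pax7-negative Myog-low cells had the highest S share, 46.3%.

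For gene-by-gene comparisons, a gene was counted as higher or lower when its mean ratio of CPM plus 1 was at least 1.5-fold and its direction was the same in all 4 files, among genes with at least 100 UMIs per file over both groups. This is a rule of size and not a test. The 3 comparisons share the same 95 cells on 1 side. Against the Pax7-positive cycling cells, 43 of 7123 genes were higher (0.604%) and 409 were lower (5.74%). Without the genes of the rule, mitochondrial and sex-linked genes, 42 and 406 of 7103 were. Most genes near the minimum passed it through the far more numerous Pax7-positive cells and had few UMIs in the 95 cells. Among the 446 genes with at least 2000 UMIs, only Tnnt1 and Gm42418 were higher, and only Mgp, Cenpf, Prc1, Myh9 and Mki67 were lower, the last a gene of the rule and so no result. These 7 genes are named from an alternative minimum chosen after the data were seen.

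Genes of chromosome segregation were lower than in the Pax7-positive cycling cells, whereas genes of DNA synthesis were not. Of 46 mitosis genes, 21 were lower and 0 higher, with a median log2 ratio of -0.56, beside a median of -0.08 over all genes tested. Of 41 replication genes tested, none was higher or lower, and their median was 0.09. Cenpf, a kinetochore protein, stood at 154, 208, 175 and 202 CPM against 347, 366, 355 and 363 CPM, a log2 ratio of -0.96 (-1.27 to -0.64). Prc1, which bundles the microtubules of the dividing spindle, stood at 204, 202, 187 and 154 CPM against 338, 338, 339 and 331 CPM, a log2 ratio of -0.85 (-1.17 to -0.54). Plk1, the polo-like kinase of mitotic entry, had a mean of 52.6 CPM against 81.3 CPM, a log2 ratio of -0.63 (-1.25 to -0.05). Not every mitotic gene differed by that much. Ccnb2 (cyclin B2) was at 117 against 121 CPM, and the ubiquitin-conjugating enzyme Ube2s at 741 against 658 CPM.

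Pcna, the sliding clamp of DNA polymerase, was at 200, 194, 173 and 189 CPM against 168, 162, 183 and 176 CPM, a log2 ratio of 0.13 (-0.19 to 0.45). Mcm6, a subunit of the replicative helicase, was at 116, 141, 149 and 105 CPM against 120, 122, 120 and 123 CPM, so its values overlapped. The highest ratios of the list were those of Rpa2, a single-strand DNA binding protein (0.58, 0.04 to 1.10), and of the S-phase cyclins Ccne2 (0.57, 0.04 to 1.07) and Ccne1 (0.55, 0.00 to 1.07).

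The mitosis counts were also taken within subsets of cells, each beside the count over all genes there. Among cells called G2/M, 13 of 46 mitosis genes were lower (median -0.41) and 538 of 5762 of all genes. Among cells called S, 2 of 26 were lower (median -0.08) and 110 of 3340 of all genes. Many genes of both lists also serve to call the phase, so these subsets are not independent of the counts. With groups assigned on thinned counts 9 of 46 were lower (median -0.41) and 220 of 7114 of all genes. In the shallower cycling Myog-low cells 24 of 44 were lower and 298 of 4745 of all genes, and in the deeper ones 16 of 44 and 337 of 4921. In the deeper cells, of which 33 were in the group, 3 of 38 replication genes were higher. The share of all genes higher there is not given here, so this count is not read as a result. Within the group, 2 genes that were not used to call phase differed between the called phases. Thinned Ccnb1 (cyclin B1) was 44.3 CPM in the 44 S cells (21.0 to 82.1 CPM) and 192 CPM in the 45 G2/M cells (139 to 259 CPM). Ccne1 was 115 CPM (74.5 to 169 CPM) in S and 36.7 CPM (16.1 to 71.5 CPM) in G2/M.

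The promoters of the 2 lists differ in sequence, and 4 are printed because their genes stand for the lists in the comparisons. Promoters of mitotic genes are known for the CHR element, letters TTTGAA, often beside CCAAT boxes. Those of replication genes are known for sites of the E2F factors, searched as TTTGGCGC, TTTGCCGC, TTTCGCGC or TTTCCCGC. Both strands were searched and matches may overlap. Each window runs from 250 bases before to 50 bases after the start of a transcript in RefSeq on GRCm38.p6, is read 5′ to 3′ on the gene's strand, and has matches in capitals. Plk1 (chr7:122159185-122159484, plus strand) and Prc1 (chr7:80294201-80294500, plus strand) hold a CCAAT box followed by a CHR. Mcm6 (chr1:128359656-128359955, minus strand) holds E2F matches, of which 2 overlap, and CCAAT boxes on the opposite strand. Pcna (chr2:132253131-132253430, minus strand) holds a CCAAT box on the opposite strand and none of the searched E2F forms.
Plk1: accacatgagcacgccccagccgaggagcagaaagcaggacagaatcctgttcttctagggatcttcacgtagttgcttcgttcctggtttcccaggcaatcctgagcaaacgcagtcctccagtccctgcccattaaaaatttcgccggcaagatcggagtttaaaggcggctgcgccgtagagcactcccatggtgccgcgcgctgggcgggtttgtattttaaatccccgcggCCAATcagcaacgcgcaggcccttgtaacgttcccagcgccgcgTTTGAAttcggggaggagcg
Prc1: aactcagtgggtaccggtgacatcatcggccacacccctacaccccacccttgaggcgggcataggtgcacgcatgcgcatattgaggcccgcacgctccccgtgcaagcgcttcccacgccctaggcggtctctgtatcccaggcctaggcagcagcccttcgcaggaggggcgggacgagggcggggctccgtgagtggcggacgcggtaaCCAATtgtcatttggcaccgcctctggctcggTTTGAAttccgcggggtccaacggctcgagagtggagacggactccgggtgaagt
Pcna: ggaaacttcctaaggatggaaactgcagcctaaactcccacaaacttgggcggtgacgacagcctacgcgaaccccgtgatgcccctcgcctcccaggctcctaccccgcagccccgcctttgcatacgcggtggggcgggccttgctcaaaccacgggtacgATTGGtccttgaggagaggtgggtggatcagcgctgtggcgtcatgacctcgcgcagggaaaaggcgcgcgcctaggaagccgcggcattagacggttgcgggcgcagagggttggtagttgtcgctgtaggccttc
Mcm6: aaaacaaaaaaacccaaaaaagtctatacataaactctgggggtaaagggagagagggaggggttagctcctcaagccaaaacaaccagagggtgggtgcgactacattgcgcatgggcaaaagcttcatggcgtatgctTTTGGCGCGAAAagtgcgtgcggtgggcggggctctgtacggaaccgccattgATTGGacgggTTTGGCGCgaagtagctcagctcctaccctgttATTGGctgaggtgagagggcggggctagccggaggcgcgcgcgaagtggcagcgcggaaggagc

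The CHR letters were in 67.5% of 40 windows of mitosis genes, 14.6% of 41 windows of replication genes and 17.9% of all 32851 windows. E2F letters were in 7.50%, 36.6% and 2.27% of the same windows, and CCAAT in 70.0%, 63.4% and 37.4%. Windows were found for 38 of 46 mitosis and 34 of 42 replication genes, and several windows of 1 gene count separately. A match is a run of letters and not a shown binding site.

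None of 23 chromatin and cytoskeleton genes of dividing cells was higher or lower against the Pax7-positive cycling cells (median -0.07). Of 24 genes of G1 and its inhibitors, 4 were lower, namely Cdkn1b (p27) at -0.96 (-1.88 to -0.02), the kinase Cdk6 at -0.72 (-1.49 to -0.03), and the sparsely counted Ccnd2 and Cdkn2b at -0.60 each. With groups assigned on thinned counts, Ccnd2 was at 0.15 and Cdkn2b at 0.22, so their direction turned. Ccnd1 (cyclin D1), at 235 against 264 CPM, and Cdkn1a (p21), at 242 against 259 CPM, had intervals that include 0.

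Of 22 stem and progenitor genes tested against the Pax7-positive cycling cells, 4 were lower and none higher, with a median of -0.26, beside 5.74% lower over all genes. The 4 were Notch3, Hes1, Notch1 and Heyl, which belong to the Notch pathway, known to hold muscle stem cells undifferentiated. No Notch list was set up, and other Notch genes in the list did not pass, namely Notch2 (-0.27, -0.97 to 0.41), Hey1 (-0.34, -1.60 to 0.77) and Rbpj (-0.06, -0.57 to 0.44). The receptor Notch3 was at 56.8, 40.0, 54.7 and 48.4 CPM against 100.3, 104, 103 and 100.3 CPM, a log2 ratio of -1.02 (-1.65 to -0.43). Hes1, a repressor that Notch induces, was at 50.5, 37.9, 56.8 and 80.0 CPM against 87.4, 93.8, 92.2 and 92.8 CPM, a log2 ratio of -0.74 (-1.30 to -0.14). The 4 values of Notch3 and of Hes1 come from libraries of the same cells and show technical repeatability only. Notch1 (-1.16, -2.50 to 0.21) and the Notch target Heyl (-1.09, -2.33 to 0.11) had 9.47 and 12.1 CPM in the group, too few UMIs for an interval that leaves out 0. With 1 replicate left out, Hes1 ran from -0.78 to -0.39, in part short of 1.5-fold. Notch3, Notch1 and Heyl stayed past it, at -0.79, -0.72 and -0.92 at their weakest. Notch3 stood at -1.49 (-2.34 to -0.72) in the shallower and -0.51 (-1.46 to 0.48) in the deeper cycling Myog-low cells, so the depth of the cells moved with its size. Myf5, a myogenic factor of progenitors, was at 80.2 CPM (64.5 to 98.4 CPM) before thinning against 88.1 CPM.

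Several secreted and matrix genes were lower. Of 19 matrix and secreted genes, 7 were lower and 0 higher, with a median of -0.49, beside 5.74% lower over all genes. Leaving out 1 replicate, which also changes the group, brought each of the 7 short of 1.5-fold at its weakest. Those weakest ratios lay between -0.56 (Mgp) and -0.09 (Vegfa), still below 0. Mgp, the matrix Gla protein, was at 354, 320, 352 and 331 CPM against 656, 670, 673 and 660 CPM, a log2 ratio of -0.97 (-1.21 to -0.74). Its ratio was -1.21 in the shallower and -1.04 in the deeper cells. Spp1 (osteopontin) was at 475 against 469 CPM. Of 16 membrane genes of progenitors 4 were lower, beside the same 5.74% over all genes. The kinase-like receptor Ror1 had the most UMIs of these, at -0.76 (-1.27 to -0.28). With 1 replicate left out, Ror1 reached -0.24 and Cdh6 -0.46, short of 1.5-fold. Egfr, at -0.84, and Gucy1a1, at -1.54, stayed past it.

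Among 14 sarcomere genes tested, 3 were higher, with a median of 0.40, and among 20 early differentiation genes 2 were higher, with a median of 0.14. Tnnt1, the slow troponin T, was at 619, 617, 636 and 581 CPM against 367, 367, 358 and 382 CPM, a log2 ratio of 0.73 (0.55 to 0.91). Mylpf, a myosin light chain, was at 366, 387, 347 and 341 CPM against 232, 219, 218 and 223 CPM, a log2 ratio of 0.69 (0.45 to 0.92). Mybpc1, a myosin binding protein (0.64, 0.42 to 0.86), and Rbm24, an RNA-binding protein of muscle splicing (0.70, 0.40 to 0.98), were the others. With groups assigned on thinned counts none of these 4 genes reached 1.5-fold: the ratios were 0.08 for Tnnt1, 0.20 for Mybpc1, 0.48 for Mylpf and 0.58 for Rbm24, and no gene of either list was higher. Myh3 and Myl1, early myosin genes, were at 17.4 and 26.3 CPM against 17.1 and 23.2 CPM.

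Among the 10 highest ratios against the Pax7-positive cycling cells, from 0.89 to 1.27, were those of Fhod3, Sema3d, Cobl, Sntb1, Gm42418, Abhd8, Pdlim3, Bex1 and Car3. Fhod3, a formin that assembles actin, was at 52.6, 44.2, 54.7 and 42.1 CPM against 18.4, 19.6, 18.4 and 21.4 CPM, with UMIs in 32 of 95 cells. Several of the others leaned on single cells. Without the cell that held most of its UMIs, the ratio of Cobl went from 1.12 to 0.54, that of Sntb1 from 1.12 to 0.43 (and -0.01 among cells called G2/M) and that of Pdlim3 from 0.96 to 0.53. Gm42418, a noncoding gene model that overlaps ribosomal RNA sequence, went from 1.10 to 0.71. It was above 10000 CPM in 7 of the 107 cells and in 11 of 1249 Pax7-positive cycling cells, while its medians over cells, 1721 and 1559 CPM, were close. Among the 10 lowest ratios, from -2.33 to -1.45, were those of Magi2, Egfr, Sox5, Gucy1a1, Ddit4, Prps2, Kif18a, Zfp608 and Tshz2. Each of these had 7.75 or fewer UMIs per file in the 95 cells. All of them stayed past 1.5-fold when 1 replicate was left out, but the sizes changed. Magi2 then ran from -1.47 to -0.70, Egfr from -2.02 to -0.84 and Prps2 from -1.21 to -0.63. Kif18a, a mitotic kinesin, was at 14.2 against 41.0 CPM (-1.54, -2.69 to -0.43).

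**Figure D3:**
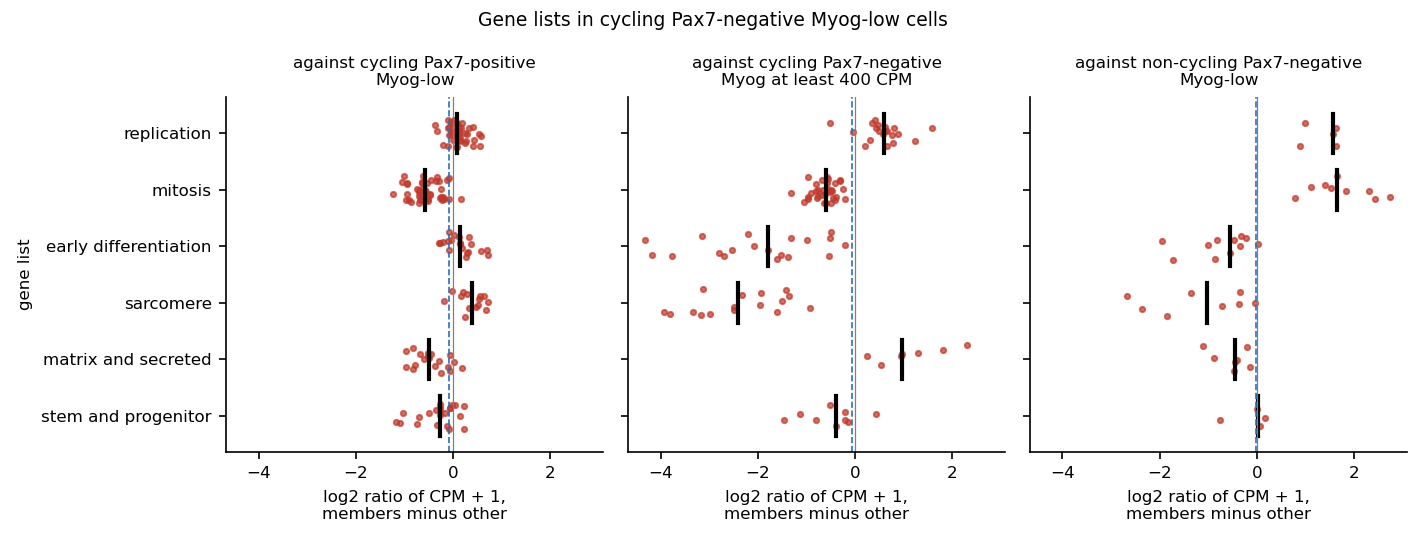
Log2 ratio of CPM plus 1, the group minus the compared cells, for each tested gene (points) of 6 lists in the 3 comparisons; black bars are list medians and the dashed line is the median of all genes tested. All but 1 of the mitosis genes tested lie below 0 in the comparisons with cycling cells (medians -0.56 and -0.59), and 18 of 20 replication genes lie above 0 against the Myog-expressing cycling cells (median 0.60).

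Against the Myog-expressing cycling cells, which Myog itself set apart, differentiation genes were far lower, and Ccnd1, Tagln2 and several matrix genes were higher. Of 2684 genes, 147 were higher (5.48%) and 364 were lower (13.6%), and the median over all genes was -0.06. Without the genes of the rule, mitochondrial and sex-linked genes, 147 and 363 of 2668 were. All 16 sarcomere genes tested were lower (median -2.40), as were 15 of 19 early differentiation genes (median -1.79). A gene low in both groups could not be tested, so these counts cover only the members of each list with enough UMIs. Tested genes such as Myh3 (8.25 against 331.5 UMIs per file) reached the minimum through the Myog-expressing cells. The counts were therefore largely set by the minimum and by the choice of cells on Myog. Mymx, a protein of myoblast fusion, was at 12.6, 14.7, 2.11 and 18.9 CPM against 227, 205, 217 and 200 CPM, a log2 ratio of -4.31 (-5.34 to -2.92). Actc1, the cardiac actin used by young muscle, was at 44.2, 46.3, 44.2 and 35.8 CPM against 798, 758, 804 and 771 CPM, a log2 ratio of -4.17 (-4.86 to -3.55). For both genes the spread over files is that of libraries of the same cells. The fusogen Mymk was at 82.1 against 535 CPM (-2.69, -3.19 to -2.23), and Myh3, the embryonic myosin, at 17.4 against 274 CPM (-3.93, -5.01 to -2.96).

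The lowest ratio of all was that of Casz1, a zinc-finger transcription factor, with 1.25 UMIs per file in the group (2.63 against 97.9 CPM, -5.03, -6.47 to -2.83). The 10 lowest also held Arpp21, Tmcc3, Myl1, Cdkn1c, Mybph and Tnni1, from -4.04 to -3.33. Cdkn1c (p57) and Cdkn1a, both inhibitors of cyclin-dependent kinases, were lower together with Rb1, Gadd45a and Cdkn2d, 5 of 13 genes of G1 and its inhibitors. Cdkn1a was at 238, 246, 246 and 236 CPM against 1091, 1140, 1105 and 1085 CPM, a log2 ratio of -2.19 (-2.48 to -1.91).

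Ccnd1, the cyclin that starts the cycle in response to growth factors, was the 1 gene of that list that was higher, at 244, 211, 244 and 240 CPM against 53.7, 43.8, 38.8 and 50.4 CPM (2.31, 1.84 to 2.78). Tagln2, an actin-binding protein, had the highest ratio of all genes, at 272, 280, 278 and 272 CPM against 46.3, 38.0, 33.9 and 36.4 CPM (2.81, 2.32 to 3.30). The growth factor Csf1 (2.36), Spp1 (2.32), the chromatin protein Hmga2 (2.08), Asap1 (1.91), Mgp (1.82), the noncoding Pvt1 (1.72), the annexin Anxa1 (1.69) and the glutathione enzyme Gclc (1.66) completed the 10 highest. Of 7 matrix and secreted genes 5 were higher (median 0.97). Of 11 myogenic regulators, Id3, an inhibitor of MyoD's partner proteins, was higher, at 1268 against 615 CPM (1.04, 0.89 to 1.20). Mef2c (-2.52), Mef2a (-1.57) and Myod1 (-0.72, -0.96 to -0.48) were lower. Of 9 stem and progenitor genes tested none was higher and 3 were lower, namely Rbpj, the DNA-binding partner of Notch (-1.46, -1.99 to -0.94), Megf10 and Dag1 (median -0.38). Of 2 membrane genes of progenitors tested, the cadherin Cdh11 was higher.

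The cycle itself differed from that of the Myog-expressing cycling cells in the same 2 gene lists. Of 20 replication genes tested 10 were higher (median 0.60), and of 33 mitosis genes 17 were lower (median -0.59). Hells, a chromatin remodeller of S phase, was at 118, 120, 126 and 114 CPM against 39.7, 39.7, 39.7 and 38.0 CPM (1.58, 1.01 to 2.16), and Pola1, a DNA polymerase subunit, at 112 against 46.7 CPM (1.25, 0.68 to 1.80). Mcm6 was at 0.77 (0.29 to 1.26) and Cenpf at -1.31 (-1.64 to -0.97). Among cells called G2/M, 0 of 8 replication genes were higher (median 0.09) and 4 of 29 mitosis genes were lower (median -0.26). Over all 1990 genes tested there, those of the rule included, 98 were higher (4.92%) and 318 were lower (16.0%). The mitosis count was thus no larger than the share over all genes. Hells, Pola1, Mcm6 and Cenpf are among the genes that call the phase, so that subset is not independent of these counts. In the same cells 15 of 15 sarcomere genes were lower (median -2.49).

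Against the non-cycling counterparts, which Mki67 and Top2a set apart, 114 of 1482 genes were higher (7.69%) and 60 lower (4.05%). Without the genes of the rule, mitochondrial and sex-linked genes, 112 and 59 of 1466 were. Histone genes led. Hist1h1b, a linker histone made in S phase, was at 762, 758, 745 and 840 CPM against 29.4, 21.6, 29.4 and 15.7 CPM, a log2 ratio of 5.00 (4.17 to 5.86). Hist1h2ap, Hist1h2ae, Hist1h4d and Hist1h1e followed at 2.84 to 4.52, and since histone genes are near copies of each other, how reads were shared among them is uncertain. Prc1 (2.74), the chromatin protein Hmgb2 (2.60), Cdk1, the kinase of mitotic entry (2.43), the condensin Smc4 (2.31) and the clamp-associated Pclaf (2.31) completed the 10 highest. All 9 mitosis and all 5 replication genes tested were higher, with medians of 1.65 and 1.56, beside -0.01 over all genes. The lists hold 46 and 42 genes, and most had too few UMIs to be tested. Tested genes such as Prc1 (88.75 against 14.5 UMIs per file) reached the minimum mainly through the group. These counts were therefore largely set by the minimum and by the choice of cells. Of 21 chromatin and cytoskeleton genes 18 were higher (median 0.93), and of 7 genes of ribosome making 4 were higher (Nop56, Nop58, Ncl and Nhp2).

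Muscle genes were lower in the group than in its non-cycling counterparts. Of 8 sarcomere genes 5 were lower (median -1.03), and of 11 early differentiation genes 5 were lower (median -0.56). Tested genes such as Myl1 (12.5 against 87.5 UMIs per file) reached the minimum mainly through the counterparts, which favours lower calls. Acta1, the skeletal actin, was at 88.4, 116, 90.5 and 116 CPM against 490, 575, 533 and 522 CPM (-2.37, -2.82 to -1.92). Myl1, a myosin light chain, was at 26.3 against 172 CPM (-2.68, -3.60 to -1.82). The others of the 10 lowest were Actc1, Tnnc1, Tnnt2, Ogn, Pgam2, Mylpf, Car3 and Mgp, from -1.96 to -1.10. Acta1 in the non-cycling counterparts rested on a minority of cells, with a median of 61.6 CPM per cell and a highest value of 18524 CPM, against 60.2 and 1413 CPM in the group. Cdkn1a was lower (-1.01, -1.34 to -0.69). None of 10 myogenic regulators was higher or lower, and Myod1, at -0.53 (-0.81 to -0.25), fell short of 1.5-fold.

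Levels before thinning placed the group differently for each of 3 genes. Myod1 was 618 CPM (589 to 646 CPM) in Myog-expressing cycling cells, 547 CPM (504 to 592 CPM) in non-cycling counterparts, 369 CPM (335 to 407 CPM) in the group and 330 CPM (322 to 339 CPM) in Pax7-positive cycling cells. The intervals of the upper pair overlap, as do those of the lower pair. Ccnd1 was 294 CPM (286 to 302 CPM) in Pax7-positive cycling cells, 256 CPM (227 to 287 CPM) in non-cycling counterparts, 243 CPM (215 to 274 CPM) in the group and 50.5 CPM (42.8 to 59.2 CPM) in Myog-expressing cycling cells. Notch3 was 91.0 CPM (86.6 to 95.6 CPM) in Pax7-positive cycling cells, 49.3 CPM (37.3 to 64.1 CPM) in the group, 49.0 CPM (36.9 to 63.9 CPM) in non-cycling counterparts and 16.1 CPM (11.9 to 21.3 CPM) in Myog-expressing cycling cells. The group's interval overlapped only that of the non-cycling counterparts for both Ccnd1 and Notch3. After thinning to equal depth, however, the interval of the Ccnd1 ratio to the Pax7-positive cycling cells did not exclude equal levels. Since these intervals cover counting error only, overlap or its absence is no test of a difference between groups.

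**Figure D4:**
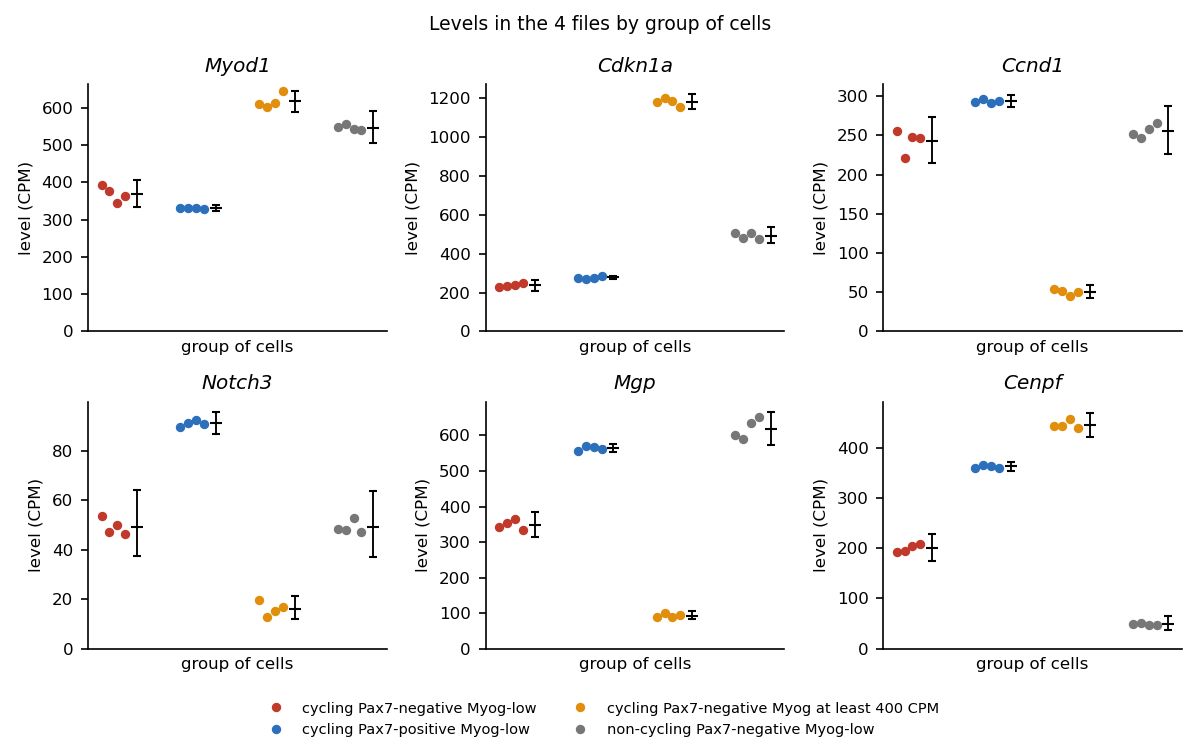
Level in CPM of 6 genes in the 4 groups before thinning, 1 point per file, with the mean and exact 95% Poisson interval in black beside them; each axis starts at 0. Myod1 of the group (369 CPM) lies close to the Pax7-positive cycling cells, Notch3 and Mgp lie between those and the Myog-expressing cycling cells, and Cenpf is the lowest of the 3 cycling groups at 200 CPM.

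Variation among the 95 thinned cells was measured gene by gene. The Fano factor, the variance of a gene's thinned UMIs over cells divided by their mean, is 1 for pure counting noise. It had a median of 1.10 over 3754 genes with a mean of at least 0.2 UMIs, and 151 genes were above 2. The 10 highest were Gm42418 (194), the synapse scaffold Dlg2 (9.48), the calcium-binding S100a4 (9.34) and S100a6 (8.62), the ferritin Ftl1 (8.42), Maml3 (8.36), Sntb1 (8.28), the protease inhibitor Cst3 (7.91), the smooth muscle actin Acta2 (7.42) and Prune2 (7.06). For Gm42418, Dlg2 and Sntb1, 24.4%, 38.1% and 39.1% of all UMIs came from 1 cell, and for Maml3 and Prune2 22.2% and 20.8%. The factors of Maml3 and Prune2 in Pax7-positive cycling cells were 1.82 and 1.77. For S100a4 and Ftl1 the highest cell held 5.06% and 3.30%. In Pax7-positive cycling cells the factors of S100a4 and Ftl1 were 6.17 and 8.44, so their spread was not confined to the group. Over single cells, Cdkn1a had a median of 158 CPM and a highest value of 1550 CPM, and Mymk a median of 45.7 CPM and a highest value of 522 CPM, against a median of 440 CPM in the Myog-expressing cycling cells.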

How the data were processed

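Muscle stem cells were profiled with 10x Genomics 3' v3.1 chemistry in 4 libraries, from approximately 10000 cells per the labels. The deposited values are UMI counts per gene and barcode, and the file headers give Cell Ranger 7.1.0 as the authors' counting software. The submitters' processing notes name version 3.1.0 and the builds mm10 and GRCm39, and which build was used, how barcodes were called and whether intronic reads were counted are not given in the sources used here. Of 32285 gene IDs, 32158 (99.6%) matched GENCODE M21 on GRCm38.

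Barcodes in all 4 files with a mean of at least 1000 genes and under 10% mitochondrial UMIs were kept (5481 of 5944). Because the libraries share their cells, n is 1 and no test was run. Depth was 6.26e+07 to 6.89e+07 UMIs per file. Intervals are exact (Poisson for levels, Clopper-Pearson for shares, conditional binomial for ratios, all at 95%) and cover counting error only, since PCR and cell sampling are not in them. Each cell was thinned to 5000 UMIs per file, and log2 ratios of CPM plus a pseudocount of 1 were averaged over the files, which understates the change of low genes. Phase was scored with scanpy 1.11.5 from 43 S and 52 G2/M genes, without Mki67 and Top2a. Doublet scores came from Scrublet in scanpy with an expected rate of 5%. Other tools were numpy 2.4.6, scipy 1.17.1, pandas 2.3.3 and matplotlib 3.10.9. The ratio calculation was tested on simulated Poisson counts, with independent files and no variation between cells. The real files hold the same cells, so that test does not cover the rule of 1 direction in all 4 files.

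The genes named are the 10 highest and 10 lowest ratios of each comparison among genes past 1.5-fold in the same direction in all 4 files with at least 100 UMIs per file over both groups, the 10 highest Fano factors at a mean of at least 0.2 UMIs, and genes of the lists; some genes that the rule names are not reported here. The members, groups and gene lists were chosen with earlier results of these data known. Medians over all genes leave out the genes of the rule, mitochondrial and sex-linked genes. Alternatives varied the thresholds, thinning, pseudocount, UMI minimum, fold and files. Those with a minimum of 2000 UMIs, cells of 1 called phase, depth strata, averaging before the log and leaving out the cell with most UMIs were chosen after seeing the data.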

Additional observations from a re-analysis of the deposited data

Results flagged for a closer look

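Among 66 log2 ratios compared over the 4 files, 5 had 1 file far from the other three, by a gap to the nearest file above Dixon's 95% critical share of the whole range, which chance gives in about 5% of such groups. Against the Pax7-positive cycling cells, Bex1 was at 0.42 in replicate 2. Against the Myog-expressing cycling cells, Csf1 was at 2.46 in replicate 4, Ccnd1 at 2.62 in replicate 3 and Pvt1 at 1.93 in replicate 4. Against the non-cycling counterparts, Hist1h4d was at 3.62 in replicate 1. Since the files hold the same cells, these gaps are between libraries and not between animals.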

How the results depend on the processing

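The group's share of kept cells, 1.95%, was 1.44% with Mki67 plus Top2a of at least 300 CPM, 1.46% with Myog under 200 CPM, 2.61% without the Malat1 minimum, 6.33% with groups assigned on thinned counts and 2.54% to 2.99% without 1 replicate, where fewer UMIs leave more cells without Pax7. Myod1 was 333 CPM with Myog under 200 CPM, and the G2/M share 59.0% with groups assigned on thinned counts. The S share, 46.3%, ran from 38.0% to 46.7% without 1 replicate (38.0% without replicate 1). Genes higher than in Pax7-positive cycling cells (43) numbered 71 at 300 CPM, 71 without thinning, 6 with groups on thinned counts, 66 centred on the median ratio, 24 with a pseudocount of 10, 131, 9 and 2 at minimums of 20, 500 and 2000 UMIs, 6 at 2-fold and 25 to 51 without 1 replicate (25 without replicate 2). Genes lower (409) numbered 664 without the Malat1 minimum, 222 with groups on thinned counts, 177 with a pseudocount of 10, 904, 52 and 5 at the 3 minimums, 79 at 2-fold and 294 to 363 without 1 replicate. Against the Myog-expressing cycling cells, genes higher (147) numbered 95 at 300 CPM, 423 without thinning, 351 with groups on thinned counts, 769, 18 and 7 at the minimums, 44 at 2-fold and 183 to 205 without 1 replicate. Genes lower (364) numbered 641 without thinning, 869, 62 and 10 at the minimums, 176 at 2-fold and 373 to 422 without 1 replicate. Against the non-cycling counterparts, genes higher (114) numbered 70 with Myog under 200 CPM, 301 without thinning, 388 with groups on thinned counts, 733, 13 and 2 at the minimums, 38 at 2-fold and 173 to 194 without 1 replicate. Genes lower (60) numbered 181 without thinning, 193 with groups on thinned counts, 379, 10 and 1 at the minimums, 12 at 2-fold and 90 to 101 without 1 replicate. Of single genes, the ratio to Pax7-positive cycling cells turned with groups on thinned counts for Ccnd2 (0.15), Cdkn2b (0.22) and Lpl (-0.071), and that of Ccnd2 ran from -0.37 to 0.0021 without 1 replicate (0.0021 without replicate 2). Among cells called G2/M it turned for Sntb1 (-0.0122), and the ratio of Clspn to the Myog-expressing cycling cells turned to -0.059. The cause was not tested, except that minimums change the genes counted. No paired analysis was possible because the samples form only 1 group. With 95 cells, genes of few UMIs had intervals wider than 1.5-fold.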
